A study of Mus musculus with 48 samples.

Results

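A set of 9 genes that mark B cells or their activation was followed in mice with collagen-induced arthritis (CIA). The 9 were taken by name from the 34586 genes of a single-cell count table: Cd79a, Cd79b, Ms4a1, Cd22, Fcer2a, Cr2, Tnfrsf13c, Cd83, and Cd86. The first 7 are called identity genes here and the last 2 activation genes. Their UMIs, the counted original RNA molecules, were summed per mouse, organ, and cell label, and CIA mice were compared with healthy mice.

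B cells recognise antigen through a membrane immunoglobulin that cannot signal by itself. The proteins of Cd79a and Cd79b form the signalling dimer of this receptor, and its output is tuned by coreceptors that either amplify it (complement receptor 2, from Cr2) or restrain it (the sialic acid binding CD22). Mature B cells in the spleen depend on the cytokine BAFF, which they sense through the receptor encoded by Tnfrsf13c, and activated B cells present antigen and raise the costimulatory proteins CD83 and CD86, which dendritic cells and macrophages also carry. In arthritis models driven by immunisation with collagen, antibodies made by the B cell lineage contribute to joint disease.

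All animals were male DBA1/J mice of 8 to 12 weeks, and cells were captured with Seq-Well, a microwell method that tags RNA with a barcode for each cell. The 4 healthy mice (H3, H4, H6, and H7) had been injected with saline. The 6 CIA mice had received 100 µg of bovine type II collagen in adjuvant and a booster on day 20. Of these, S1, S2, and S3 had severe arthritis (score 8) and S5, S6, and S8 had mild arthritis (scores from 2 to 5). Spleen, muscle, lung, and skin were taken from all 10 mice, and joint from 3 healthy and 5 CIA mice. The mice came from 2 experiments, and all severe mice were in the same experiment as H3 while all mild mice were in the other, so the effects of severity and of experiment cannot be told apart here. The cell labels are those of the study, which clustered the cells together with reference profiles of sorted cell populations. Marker genes, with Ms4a1 and Cd22 among those of B cells, were then used to check the labels or name other clusters. For that reason the levels of these genes in labelled B cells are a description and not a result.

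The table held 13240 cells, of which 12096 had a label, with a median of 675 UMIs per labelled cell and 17748 to 1645734 UMIs per sample. Libraries were not all separate from each other. The muscle and spleen libraries of S8 shared 36 cell barcodes. In all 34 of them that were labelled in both libraries the label was the same, and the correlation between the paired profiles was 0.83 to 0.999 across genes. Of the 32 muscle cells of S8 with at least 1000 UMIs, 24 had a barcode that was also in the spleen library of S8. The same muscle library held 150 cells labelled B cells among 262, and 0 fibroblasts and 0 endothelial cells. Several values of muscle that rest on it are given with and without it. In all, 59 barcodes occurred in more than 1 library.

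The genes lie apart on the mouse genome (GRCm38): Cd79a at chr7:24897381-24902197 on the plus strand, Cd79b at chr11:106311341-106314762 on the minus strand, Ms4a1 at chr19:11249675-11266241 on the minus strand, and Cd22 at chr7:30865402-30880342 on the minus strand. Fcer2a was at chr8:3681737-3694175, Cr2 at chr1:195136811-195176716, Tnfrsf13c at chr15:82221743-82224369, and Cd86 at chr16:36603869-36666081, all on the minus strand. Cd83 was at chr13:43784775-43803132 on the plus strand. All 9 are annotated as protein coding.

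Promoters from RefSeq (GRCm38.p6) matched 5 of the 9 genes, with 7 start sites. In the 250 bases before the start, the E box CAGGTG, on either strand, was present at 5 of these 7 sites and at least once for each of the 5 genes. It was present in 17.2% of all 32851 promoters. The palindrome bound by the B cell factor EBF1 occurred in 1 of the 7 sites, that of Cd22, and in 0.779% of all promoters. The ETS core AGGAAG was found at 3 of the 7 sites, in Cd79a and Fcer2a, and in 29.5% of all promoters. The octamer ATTTGCAT and the NF-kB sequence were found in none of the 7, and in 1.6% and 0.356% of all promoters. The following 30-base windows, written 5′ to 3′ on the strand of the gene, show 5 of the matches, so that the promoters of 4 identity genes can be read beside their levels. The capitals mark the matched letters, and a match is no evidence of binding.
Cd79a E box, chr7:24897331-24897360: ttgtggccagccCAGGTGcagggcagttcc
Cd79a ETS core, chr7:24897430-24897459: gcacggctgaacAGGAAGtgaggcggagtt
Cd22 EBF1, chr7:30879058-30879087: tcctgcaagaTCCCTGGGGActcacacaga
Cr2 E box, chr1:195176790-195176819: tccgcccctagtCACCTGcagttgtgcttc
Tnfrsf13c E box, chr15:82224459-82224488: atgcaggaaccaCAGGTGaaagaggtctgg
The windows of Cd22, Cr2, and Tnfrsf13c are on the minus strand of the genome, and the match in Cr2 reads as CACCTG, the reverse complement of the letters searched. The RefSeq start sites are not the gene ends given above. For Cd79a and Cd22 they lie inside the gene spans given above. The windows of the Cd79a ETS core and the Cd22 EBF1 match therefore fall within those spans.

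The first question was whether B cells of the spleen carried more or fewer of these transcripts in arthritis. No difference larger than the spread between mice was detected for any of the 9 genes. Of the 8 genes that passed the filter on low counts, 0 were called by edgeR's quasi-likelihood test, 0 had an unadjusted p below 0.05, and 0 were called by DESeq2. The share of all 1252 genes called in these cells was 0.0% by edgeR, with 40 at an unadjusted p below 0.05 and 4 called by DESeq2. The sums came from 1182 cells, between 24 (S3) and 275 (H4) per mouse, and 13732 to 205093 UMIs per mouse. Values below are UMIs of the gene per 1000000 UMIs of the same cells (CPM).

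Cd79a and Cd79b encode the signalling pair of the receptor. Cd79a was at 572, 809, 680.2, and 511 CPM in the B cells of H3, H4, H6, and H7, and at 218 (S3), 545, and 788 CPM (S2) as lowest, median, and highest of the 6 CIA mice. The 2 ranges overlapped, and the log2 fold change, CIA against healthy, was -0.23 with a standard error of 0.33 (edgeR, adjusted p = 0.999). Cd79b was at 331, 702, 899, and 747 CPM in the healthy mice, and at 218 (S3), 503, and 776 CPM (S2) in the CIA mice. H3 was low among the healthy mice, and the fold change of -0.37 ± 0.35 (SE) on the log2 scale was about as large as its error (edgeR, adjusted p = 0.999).

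Ms4a1 encodes CD20, the membrane protein targeted by antibodies that deplete B cells. It was at 783, 956, 899, and 524 CPM in healthy mice and at 218 (S3), 781, and 1213 CPM (S8) in CIA mice, so both the lowest and the highest mouse were arthritic. Its log2 fold change was -0.05 ± 0.36 (SE; edgeR, adjusted p = 0.999). Cd22, the inhibitory lectin, was at 211, 590, 413, and 564 CPM in healthy mice and at 341 (S8), 433, and 729 CPM (S1) in CIA mice. The lowest mouse was the healthy H3. The log2 fold change was 0.02 ± 0.35 (SE), with an adjusted p of 0.999 in edgeR.

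Fcer2a encodes CD23, the low-affinity IgE receptor of follicular B cells, and Cr2 the complement receptor CD21, which is abundant on marginal zone B cells. Fcer2a was at 60.2, 258, 24.3, and 183 CPM in healthy mice, where H3 and H6 had only 2 and 1 UMIs. It was at 0, 86.5, and 192 CPM (S1) as lowest, median, and highest of the CIA mice. The mouse at 0 was S3, in which 3 UMIs would have been 218 CPM, and H4 was the only mouse above that level. The log2 fold change was -0.48 ± 0.58 (SE; edgeR, adjusted p = 0.999). Cr2 was at 301, 361, 267, and 105 CPM in healthy mice and at 187 (S5), 242, and 394 CPM (S8) in CIA mice. Of the 6 CIA mice, 4 lay inside the healthy range, and the log2 fold change was 0.04 ± 0.39 (SE; edgeR, adjusted p = 0.999).

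Tnfrsf13c, the BAFF receptor gene, had the largest estimate of the identity genes in size. It was at 241, 166, 292, and 131 CPM in healthy mice and at 72.8 (S3), 120.5, and 170.3 CPM (S8) in CIA mice. S5 and S8 overlapped with H4 and H7, and the other 4 CIA mice were below all healthy mice. The log2 fold change was -0.64 ± 0.36 (SE), with an unadjusted p of 0.095 and an adjusted p of 0.999 in edgeR, and leaving out single mice gave -0.86 to -0.53.

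The activation genes overlapped between the groups as well. Cd83, whose protein stabilises MHC class II on the cell surface, was at 421, 366, 559, and 419 CPM in healthy mice and at 125 (S6), 306, and 727 CPM (S5) in CIA mice. The mild mice S6 and S5 held both extremes. The log2 fold change was -0.34 ± 0.38 (SE; edgeR, adjusted p = 0.999). Cd86, a ligand of CD28 on T cells, had 37 UMIs in all 1182 cells, too few for the filter. Its levels were 0, 39.0, 48.6, and 52.4 CPM in healthy mice and 0 (S3 and S6), 41.5, and 98.3 CPM (S5) in CIA mice. In a fit of all genes with a UMI, its log2 fold change was 0.36 ± 0.69 (SE; edgeR, adjusted p = 0.909).

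**Figure D1:**
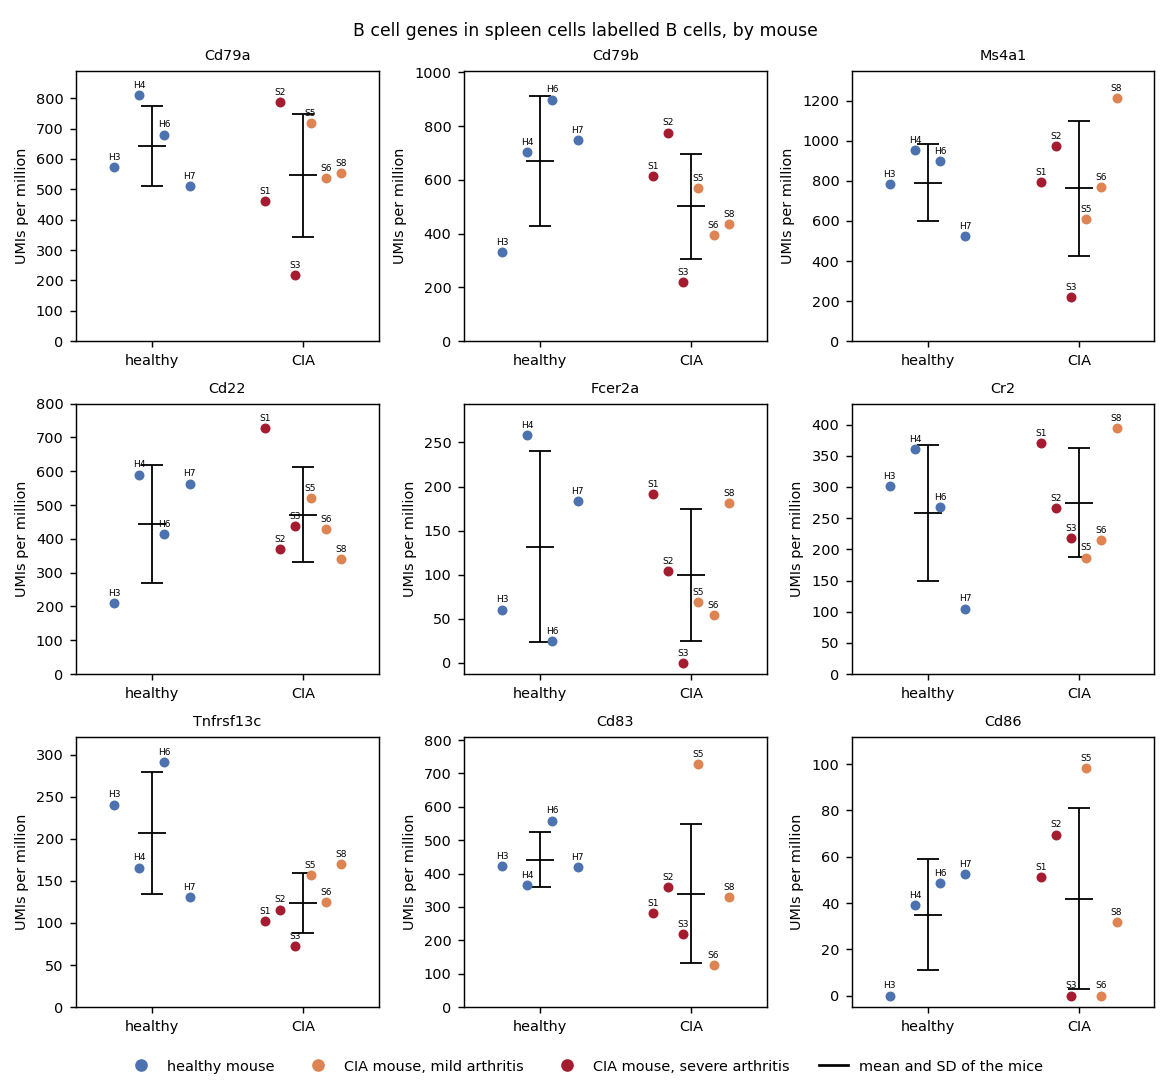
CPM (y axis) of the 9 genes in spleen cells labelled B cells, with 1 point per mouse for 4 healthy and 6 CIA mice coloured by arthritis severity, and bars at the mean and SD. The groups overlap in all 9 panels; S3, with 24 cells, is the lowest CIA mouse for Cd79a, Cd79b, Ms4a1, and Tnfrsf13c.

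By severity, given without a test, Tnfrsf13c averaged 207 ± 72.5 CPM in healthy mice (SD, n = 4), 151 ± 23.2 CPM in mild CIA (SD, n = 3), and 97.0 ± 22.0 CPM in severe CIA (SD, n = 3). Its 19 UMIs in the severe mice limit that value, and the 3 mild mice (125, 157, and 170.3 CPM) lay above the 3 severe mice (72.8 to 116 CPM). The share of all genes without overlap between mild and severe mice is not given. Cd83 averaged 441 ± 82.4, 394 ± 306, and 286 ± 70.5 CPM in the same order. Cd22 was not ordered in this way, with 444 ± 174, 430.2 ± 90.2, and 512 ± 190.5 CPM. Severity was confounded with experiment. Within the experiment that held H4, H6, H7, and the mild mice, the log2 fold change of Tnfrsf13c was -0.44 (edgeR, adjusted p = 0.73) and that of Cd79b was -0.86 (adjusted p = 0.638).

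Transcripts that mark other cell types were also counted in these labelled B cells. The 6 granulocyte genes S100a8, S100a9, Camp, Ngp, Ltf, and Ly6g summed to 850.3 to 1533 CPM in healthy mice and to 2012 to 22721 CPM in CIA mice. These ranges did not overlap, but the share of all genes without overlap is not given, so this is a description only. Of the 6 genes, 4 were tested and 0 called. S100a8 had a log2 fold change of 3.01 ± 0.61 (SE) and Ngp of 4.27 ± 0.94 (SE), with edgeR adjusted p of 0.1 and 0.13. The 6 erythroid genes, of which 4 encode haemoglobin, summed to 656 to 35041 CPM in healthy and 6291 to 58325 CPM in CIA mice, and the 9 T cell genes to 267 to 541 and 139 to 437 CPM. Leaving haemoglobin genes out of the totals gave a log2 fold change of -0.24 for Cd79a and -0.65 for Tnfrsf13c, an alternative chosen after seeing the data. The part of the granulocyte transcripts in the values of the 9 genes was not tested.

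The pathway around these genes was read from lists of other B cell genes. Of 26 genes of B cell receptor signalling, 13 could be tested in spleen B cells and 0 were called, with a median log2 fold change of -0.32 beside a value close to 0 for all genes tested. The 2 with the lowest p were Ptprc, the CD45 phosphatase (-0.43 ± 0.31, SE), and Prkcb, a kinase downstream of the receptor (-0.41 ± 0.39, SE), both at an edgeR adjusted p of 0.999. Of 17 B cell transcription factor genes 8 were tested and 0 called, with a median of -0.12, and the lowest p belonged to Klf2, a factor that controls B cell localisation (-0.52 ± 0.32, SE), and Mef2c (-0.37 ± 0.3, SE). From the genes for BAFF and APRIL, their receptors, and NF-kB signalling downstream, only Birc3 passed the filter, at -0.12 ± 0.51 (SE). Tnfsf13b, the gene of BAFF itself, had 0 UMIs in the B cells of the spleen.

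Among 14 genes of follicular and marginal zone B cells, 8 were tested and 0 called, and their median was -0.47. S1pr1, the receptor that guides B cells out of lymphoid tissue, had the lowest p of the list, with a log2 fold change of -1.05 ± 0.36 (SE) and an edgeR adjusted p of 0.87. Ccr7, a homing receptor, followed at -0.67 ± 0.41 (SE). The 17 early activation genes gave 8 tested and 0 called, with a median of -0.10, and the lowest p were those of Cd69 (-0.55 ± 0.31, SE) and Bcl2a1b (-0.61 ± 0.66, SE). For germinal centre and plasma cells 3 of 13 genes were tested and 0 called, among them Jchain, the joining chain of secreted IgM and IgA (-1.44 ± 0.85, SE), and Mzb1 (-0.47 ± 0.33, SE). All 9 MHC class II genes were tested and 0 called, with a median of -0.25, and the lowest p were those of H2-Ob (-0.85 ± 0.51, SE) and H2-DMa (-0.43 ± 0.29, SE). None of the 7 partner genes of costimulation on T cells and antigen presenting cells passed the filter.

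The second question was how these transcripts stood in the organ as a whole, where fewer B cells and less RNA per B cell cannot be told apart. In the sum of all labelled cells of the spleen, the 8 genes tested all had a log2 fold change below 0, from -0.95 (Fcer2a) to -0.40 (Cr2), with a median of -0.69 beside -0.01 for all 2927 genes. None passed the threshold in edgeR or in DESeq2, and 2 had an unadjusted p below 0.05 in edgeR. The share of all genes called was 0.137%. By sign alone, 51.1% of all genes tested were below 0.

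Cd79b was at 215, 477, 525, and 479 CPM in the spleens of H3, H4, H6, and H7, and at 130.2 (S3), 240.2, and 387 CPM (S5) in the CIA mice. All CIA spleens were below H4, H6, and H7, whereas H3 lay inside the CIA range. The log2 fold change was -0.78 ± 0.31 (SE), with an unadjusted p of 0.0265 and an adjusted p of 0.636 in edgeR. Tnfrsf13c was at 144, 92.4, 147, and 116 CPM in healthy and at 33.6 (S2), 72.7, and 99.4 CPM (S5) in CIA spleens, and H4 was the only healthy mouse inside the CIA range. Its log2 fold change was -0.81 ± 0.31 (SE), with an unadjusted p of 0.022 and an adjusted p of 0.579 in edgeR.

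Cd79a was at 233, 513, 315, and 363 CPM in healthy spleens and at 83.7 (S3), 223, and 334 CPM (S5) in CIA, a log2 fold change of -0.72 ± 0.36 (SE; edgeR, adjusted p = 0.802). Ms4a1 was at 431, 632, 451, and 411 CPM in healthy spleens and at 195 (S3), 286, and 685 CPM (S8) in CIA, the highest value of all being that of a mild CIA mouse, and its log2 fold change was -0.50 ± 0.34 (SE; edgeR, adjusted p = 0.92). Cd83 was at 260.3, 241, 336, and 335 CPM in healthy spleens and at 67.3 (S6), 155, and 415 CPM (S5) in CIA, a log2 fold change of -0.65 ± 0.38 (SE; edgeR, adjusted p = 0.869). The remaining genes overlapped in the same way, with fold changes of -0.66 ± 0.34 for Cd22, -0.95 ± 0.52 for Fcer2a, and -0.40 ± 0.46 for Cr2 (log2, SE). Cd86 did not pass the filter, and it was at 8.98 to 42.0 CPM in healthy and 7.47 to 63.9 CPM in CIA spleens.

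Values of single experiments were smaller for several genes. With the 3 healthy and 3 mild CIA mice of a single experiment, the log2 fold change was -0.66 for Cd79b, -0.28 for Tnfrsf13c, and -0.08 for Ms4a1, and the other experiment held 1 healthy mouse, too few for its own test. The share of cells labelled B cells was lower on average in CIA too. It was 37.0%, 55.9%, 46.6%, and 56.2% of labelled spleen cells in H3, H4, H6, and H7, and 26.4%, 13.9%, 15.6%, 44.8%, 50.3%, and 53.6% in S1, S2, S3, S5, S6, and S8. The 3 severe mice were below all healthy mice and the 3 mild mice were among them. The difference of the means was -14.8 percentage points (two-sided exact permutation test over 4 and 6 mice, p = 0.181, 0.362 after Benjamini-Hochberg adjustment over 2 organs), and -3.32 points within the experiment of the mild mice (exact permutation test, p = 0.5). Granulocyte genes were higher in the same spleens, at 3389 to 22389.6 CPM in healthy and 19800.4 to 132071 CPM in CIA mice, and their part in the lower CPM of the 9 genes was not tested. The other lists gave 0 calls too: all 15 tested genes of receptor signalling were below 0 with a median of -0.37, 10 of 12 transcription factor genes were below 0 with a median of -0.59, and all 9 MHC class II genes were below 0 with a median of -0.73.

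**Figure D2:**
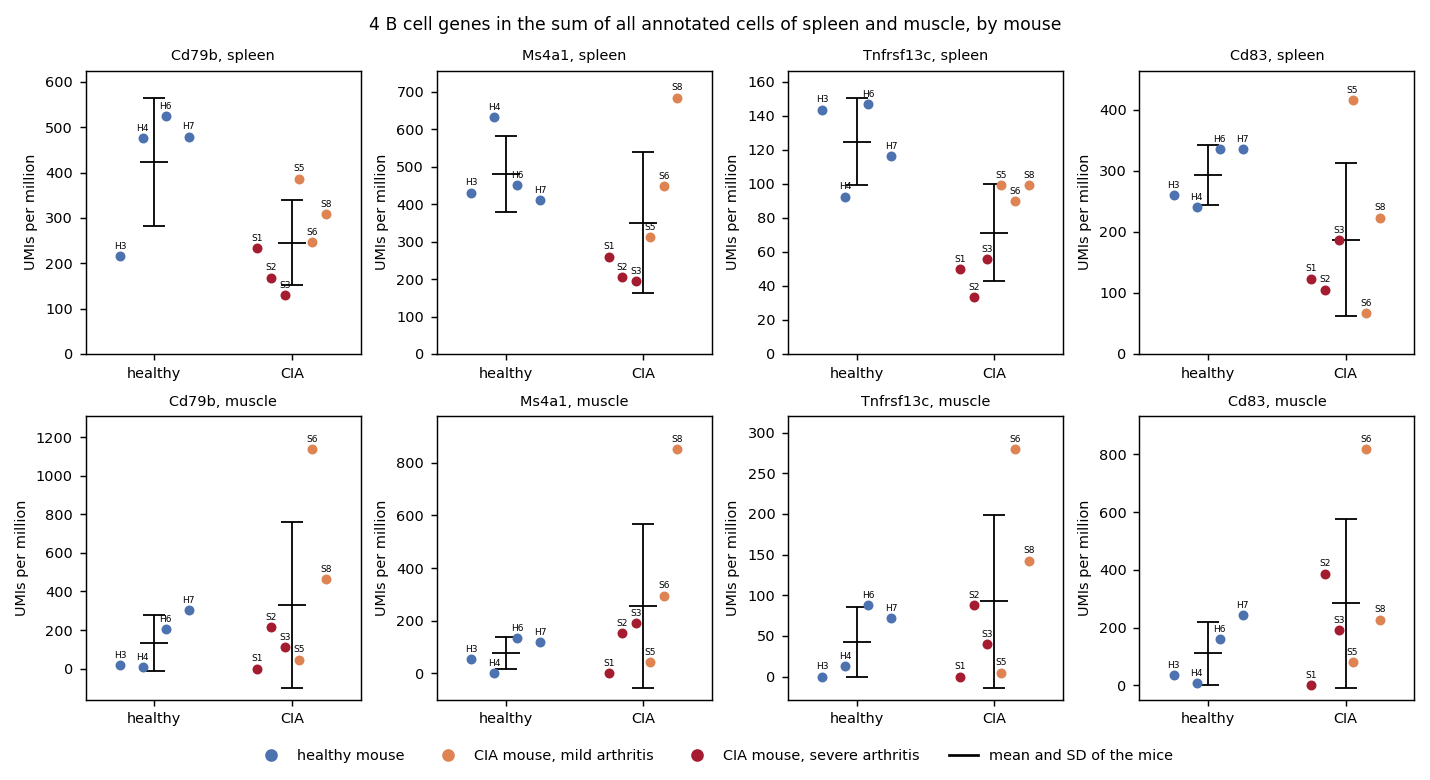
CPM (y axis) of 4 of the genes in the sum of all labelled cells of the spleen (top) and the muscle (bottom), with 1 point per mouse and bars at the mean and SD. In spleen the severe mice lie low for Cd79b and Tnfrsf13c; in muscle S6 is highest for Cd79b, Tnfrsf13c, and Cd83, and S8 for Ms4a1.

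**Figure D3:**
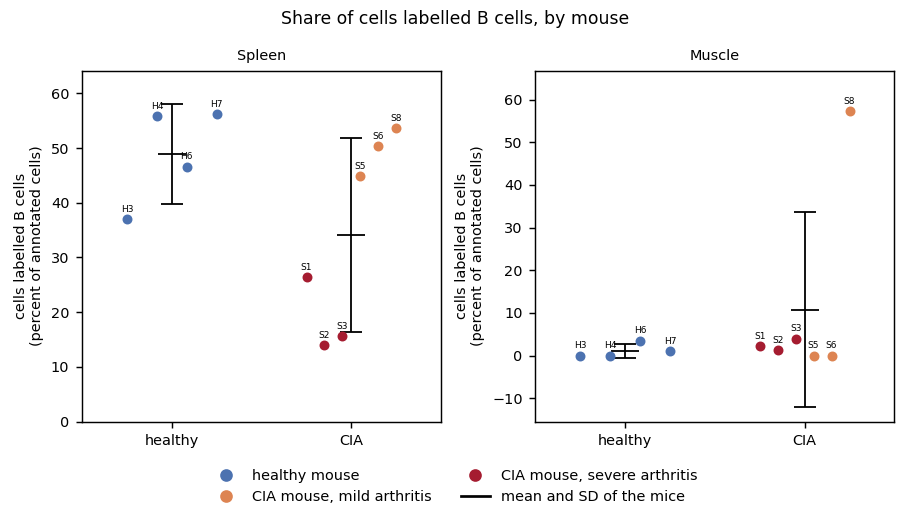
Cells labelled B cells as a percentage of labelled cells (y axis) in the spleen and muscle of 4 healthy and 6 CIA mice, with bars at the mean and SD. Spleen shares run from 13.9% to 56.2%, and S8 holds 57.3% in muscle, where no other mouse passes 4.0%.

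In muscle the averages had the opposite sign to the spleen, and the highest values belonged to 2 libraries. The 7 genes tested in the sum of all labelled cells had log2 fold changes of 0.79 (Cd79a) to 1.64 (Ms4a1), with a median of 1.11 beside 0.05 for all 3634 genes. Again 0 were called by edgeR or DESeq2, and 0 had an unadjusted p below 0.05 in edgeR. The share of all genes called was 0.055%. After leaving out S6 and S8, an alternative chosen after seeing the data, the log2 fold change of Cd79a was -0.37 and that of Cd79b -0.56, Ms4a1 was at 0.27, Cd22 at 0.30, Cd83 at 0.47, and Cd86 at 0.57 (edgeR, adjusted p = 0.999 each). Cr2 did not pass the filter. It was at 0, 0, 15.3, and 22.0 CPM in healthy muscle and at 0, 0, 7.35, 37.0, 61.4, and 280.2 CPM in S1, S3, S5, S2, S6, and S8. In a fit of all genes with a UMI, the median over all genes was 0.31. There the log2 fold change of Cr2 was 2.34 ± 0.69 (SE), with an unadjusted p of 0.00067 and an adjusted p of 0.178 in edgeR. The highest level was that of S8, whose muscle library shares barcodes with its spleen library, and no fit of Cr2 without S8 is given.

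Cd79b was at 17.9, 6.30, 206, and 305 CPM in the muscle of H3, H4, H6, and H7, and at 0, 46.6, 111, 216, 465, and 1136 CPM in S1, S5, S3, S2, S8, and S6. Only S8 and S6 exceeded H7. Its log2 fold change was 1.11 ± 0.97 (SE; edgeR, adjusted p = 1.0), 0.24 without S6, and 0.95 without S8. For Cd79a it was 0.28 without S8. Ms4a1 was at 53.6, 0, 134, and 118 CPM in healthy muscle and at 0, 41.7, 154, 191, 295, and 851 CPM in S1, S5, S2, S3, S6, and S8. The value of S8, whose barcodes overlap with its spleen library, was the highest, and the log2 fold change of 1.64 ± 0.93 (SE; edgeR, adjusted p = 1.0) became 0.71 without it. Cd83 was at 35.7, 6.30, 160.2, and 242 CPM in healthy muscle and at 0 (S1), 209, and 818 CPM (S6) as lowest, median, and highest in CIA, and its log2 fold change of 1.17 ± 0.82 (SE; edgeR, adjusted p = 1.0) became 0.57 without S6 and 1.21 without S8. Granulocyte genes ran the other way in muscle, at 33879.5 to 100503 CPM in healthy and 2631 to 26876 CPM in CIA mice. These ranges did not overlap, but all 6 genes were tested and 0 called, and the share of all genes without overlap is not given. The part of granulocyte genes in the CPM of the 9 genes was not tested. Red cells had been lysed in the muscle of H6, H7, S2, S3, S6, and S8 only, and the part of lysis was not tested either.

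Cells labelled B cells were few in muscle apart from S8: 13 in H6, 5 in H7, 1 in S1, 9 in S2, 7 in S3, 150 in S8, and 0 in the other 4 mice. H6 and S8 alone reached 10 cells, so levels in these cells could not be tested between the groups. The share of B cells averaged 1.16% ± 1.66 in healthy (SD, n = 4) and 10.8% ± 22.8 in CIA muscle (SD, n = 6; two-sided exact permutation test, p = 0.429, adjusted 0.429). Without S8 the difference of 9.64 percentage points fell to 0.349. In the 150 cells of S8, Ms4a1 was at 1449 CPM (95% Poisson interval 1215 to 1715), Cd79a at 751 CPM (586 to 949), Cd79b at 666 CPM (510.2 to 853), and Cr2 at 483 CPM (352 to 646). The spleen B cells of the same mouse had 1213, 553, 436, and 394 CPM. Of the shared barcodes, 14 were labelled B cells in both libraries, so the 2 sets are not independent, and Poisson intervals cover counting error only.

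Across labels the identity genes were not confined to B cells. Cells labelled B cells held 35.8% of all Cd79a UMIs of labelled cells, 17.5% of Cd79b, 43.3% of Ms4a1, 46.4% of Cd22, 35.1% of Fcer2a, 54.3% of Cr2, and 17.0% of Tnfrsf13c. Cells labelled Myocytes, a name for muscle cells, held 32.5% of Cd79a, 48.3% of Cd79b, 22.0% of Ms4a1, and 48.3% of Tnfrsf13c. The activation genes were more widely spread, with 14.4% of Cd83 and 7.50% of Cd86 in B cells and 44.2% and 47.7% in cells labelled Myocytes. These shares follow from how many cells carry each label as well as from their levels.

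For levels, organ and label groups of at least 20 cells were ordered by pooled CPM. Cd79a was highest in B cells of muscle (744 CPM, 95% Poisson interval 592 to 922) and spleen (654 CPM, 599 to 713), followed by cells labelled Myocytes in joint (576 CPM, 211 to 1254) and muscle (453 CPM). The intervals of the first 3 overlapped, and the next group, neutrophils of joint, was at 235 CPM. Ms4a1 and Cd22 had the same leading pair: Ms4a1 was at 1317 CPM in muscle B cells and 849 CPM in spleen B cells, and Cd22 at 519.7 CPM and 499 CPM. Both were lower in cells labelled Myocytes of muscle, at 347 and 159.8 CPM, and in spleen dendritic cells, at 251 and 140 CPM. For Ms4a1 the order within this pair rests on S8, which held 150 of the 185 muscle B cells and shares barcodes with its spleen library. In the 35 muscle B cells of the other mice, Ms4a1 was at 651 CPM (336 to 1137), below the value in spleen, whereas Cd79a was at 705 CPM (376 to 1206), and Cd22 was at 597 CPM (298 to 1068).

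Cr2 was the identity gene most concentrated in labelled B cells. It was at 484 CPM in muscle and 288 CPM in spleen B cells, against 104 CPM in dendritic cells of the spleen and 66.5 CPM in cells labelled Myocytes of muscle. Fcer2a was at 161 CPM in B cells of muscle, 154 CPM in those of spleen, and 113 CPM in cells labelled Myocytes of muscle, whose interval of 94.5 to 134 CPM overlapped with both. Without S8, muscle B cells had 488 CPM of Cr2 (9 UMIs) and 326 CPM of Fcer2a (6 UMIs). Cd79b and Tnfrsf13c had another order. Cd79b led in cells labelled Myocytes of joint (1824 CPM from 20 cells) and muscle (1278 CPM). Muscle neutrophils were next at 637 CPM (504 to 795), with 72 of 78 UMIs from S6, and at 197 CPM without S6. Spleen B cells were at 621 CPM. Tnfrsf13c was at 1248 CPM in the Myocytes of joint, from 13 UMIs, at 339.9 CPM in those of muscle, and at 155 CPM in spleen B cells.

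The activation genes were also found under myeloid labels. Cd83 was highest in cells labelled Myocytes of muscle (904 CPM), then at 449 CPM in muscle neutrophils, 397 CPM in spleen B cells, and 367 CPM in muscle macrophages. These last 3 had overlapping Poisson intervals. Of the 55 Cd83 UMIs in muscle neutrophils, 50 came from S6, and without S6 the level was 164 CPM in muscle neutrophils (53.4 to 384) and 260.5 CPM in muscle macrophages (191 to 346). In Basal III cells of the skin, an epithelial label, Cd83 was at 2.66 CPM, and 0.281% of cells had a UMI. Cd86 was at 241 CPM in cells labelled Myocytes of muscle, 165 CPM in skin macrophages (6 UMIs), 161 CPM in muscle macrophages (172 CPM without S6), and 115 CPM in lung macrophages, against 47.1 CPM in spleen B cells.

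**Figure D4:**
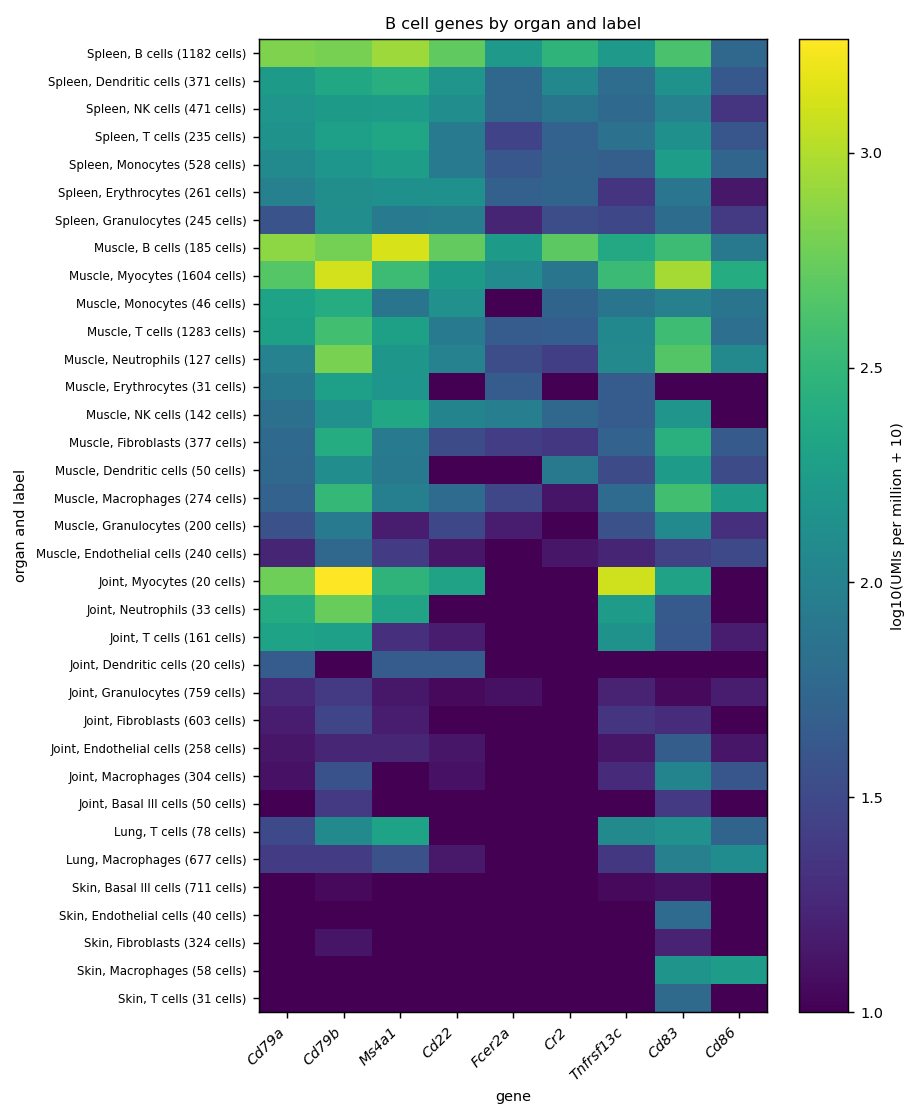
Pooled level of each gene (columns) as log10 of CPM plus 10 (colour) in organ and label groups of at least 20 cells (rows, with cell numbers). The B cells of spleen and muscle and the cells labelled Myocytes of muscle are bright for most identity genes, and Cr2 is brightest in the B cells.

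Over the 28 groups of at least 50 cells, the genes whose log2 levels followed Cd79a closely included Pax5 (Pearson r = 0.931), Ighd (0.913), Ptprcap (0.912), and Cd79b (0.905). Those nearest to Cd83 were Cd74 (0.941), H2-Ab1 (0.923), H2-Aa (0.921), Ccr7 (0.897), and H2-DMa (0.877), of which 4 belong to MHC class II presentation. Cd86 was closest to Lpxn (0.905), H2-Ab1 (0.877), H2-Eb1 (0.874), Gpr132 (0.87), and H2-Aa (0.851). Among the 9 genes, Cd22 and Fcer2a were the most alike (0.95), and Cr2 and Cd86 the least (0.27). Groups of the same organ shared mice and libraries, so these correlations describe the table and carry no test.

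The cells labelled Myocytes came almost wholly from a single library. Of all such cells, 91.8% (1492) were in the muscle of S6, a mild CIA mouse, while H7 had 64, H6 had 33, joint of S5 had 17, and no other sample had more than 9. In the 1492 cells, 7 muscle fibre genes summed to 35.8 CPM, against 52.2 CPM in spleen B cells. The myosin gene Myh4 was at 0 and creatine kinase Ckm at 6.26 CPM, and both were at 0 in spleen B cells. The 10 genes given by the study for the label summed to 84.1 CPM. They summed to 20.4 CPM in spleen B cells and to 309 CPM in the other labels of the S6 muscle. As a sum, fibre genes were thus no higher than in spleen B cells, and the label genes were lower than under the other labels. To that extent the data go against the label in this library, and the name is kept here only as the name of a group.

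In these 1492 cells every one of the 9 genes was present. Cd79a was at 453 CPM (95% Poisson interval 414 to 494), Cd79b at 1309.7 CPM (1243 to 1379), Tnfrsf13c at 346 CPM (313 to 382), and Ms4a1 at 348 CPM (314 to 384). Set beside the 1182 B cells of the spleen, Cd79b and Tnfrsf13c were higher. Lower were Cd79a (654 CPM in spleen B cells, 599 to 713), Ms4a1 (849 CPM, 786 to 916), Cd22 (159 against 499 CPM), and Cr2 (70.7 against 288 CPM). Fcer2a was at 115 CPM (95.5 to 136) against 154 CPM (128 to 184). Cd83 was at 932 CPM (876 to 991) and Cd86 at 247 CPM (219 to 278), against 397 CPM (354 to 444) and 47.1 CPM (33.2 to 64.9) in spleen B cells. A single library stands behind the first group, so these intervals speak for its cells and not for CIA.

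Other labels of the same library carried the genes as well. The 497 remaining muscle cells of S6 had 100.4 CPM of Cd79a (75.2 to 131), 769 CPM of Cd79b (696 to 848), and 576 CPM of Cd83 (513 to 644). Thinned to 400 UMIs per cell, 16.1% of the cells labelled Myocytes were expected to show a UMI of Cd79a, against 3.72% of the other S6 cells and 22.2% of spleen B cells, and 39.6%, 25.3%, and 20.8% to show Cd79b. Median depths were 621, 788, and 587.5 UMIs, and without thinning the shares were 27.2%, 9.46%, and 32.7% for Cd79a and 56.1%, 49.7%, and 30.6% for Cd79b. Basal III cells of the skin, which should lack these genes, had 0 of 711 cells with a UMI of Cd79a, which allows up to 0.422% of cells with a UMI, and 1 cell with Cd79b, at a median of 797 UMIs. These are cells of another organ and other libraries, and the level of free RNA in the muscle library of S6 was not measured.

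The proportions between the genes differed between these groups. In the cells labelled Myocytes of S6 there were 2.89 Cd79b UMIs for each of Cd79a, against 7.66 in the other labels of that library and 0.949 in spleen B cells. Cd83 showed 2.06 UMIs for each of Cd79a in the first group, 5.74 in the second, and 0.607 in the third. At least 1 identity UMI was found in 80.8% of the cells labelled Myocytes, in 66.2% of the other S6 cells, and in 77.9% of spleen B cells, and after thinning in 65.0%, 40.1%, and 66.0%. In 255 of the 1492 cells an identity gene and a T cell gene were found together. Doublets were not called, and their part in these numbers was not tested.

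**Figure D5:**
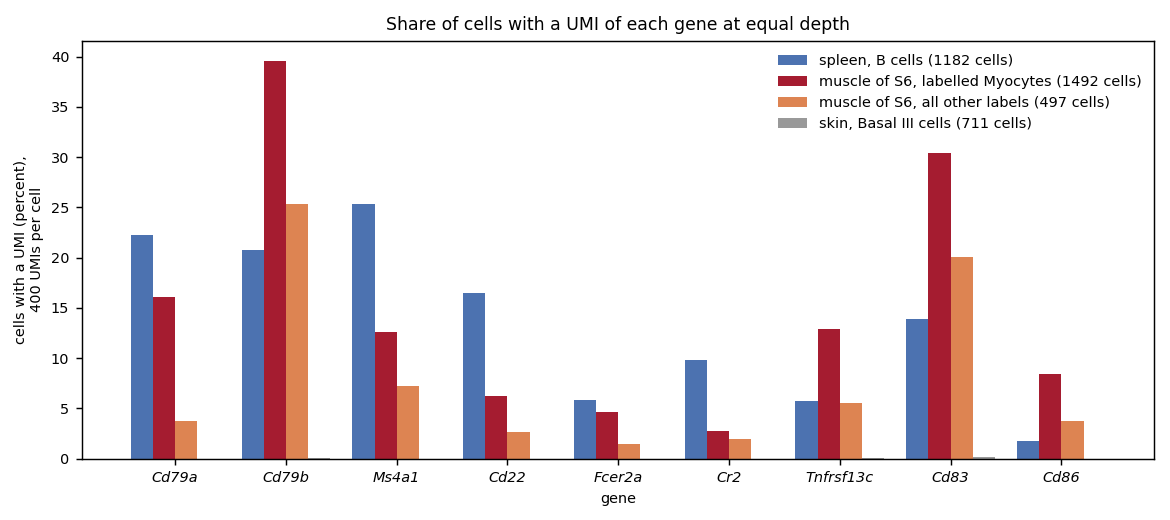
Expected percentage of cells with a UMI of each gene after thinning every cell to 400 UMIs (y axis) in spleen B cells, muscle cells of S6 labelled Myocytes, the other labels of that library, and Basal III cells of skin. The Myocytes of S6 reach 39.6% for Cd79b and 30.4% for Cd83, and stay below spleen B cells for Cd79a, Ms4a1, Cd22, Fcer2a, and Cr2.

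Pathway genes of B cells were also present in the Myocytes of S6. The 26 receptor signalling genes summed to 3191 CPM, against 2159 CPM in the other labels of that library and 3863 CPM in spleen B cells, and the 17 transcription factor genes to 2679 CPM, against 1686 and 3392 CPM. Both lists were thus present under the other labels of S6 as well. The remaining lists follow in the order Myocytes of S6, other labels, and spleen B cells. Early activation genes summed to 6981, 8255, and 6706 CPM, and germinal centre and plasma cell genes to 934, 1421, and 1722 CPM. Costimulation partners summed to 159, 284, and 73.8 CPM. The BAFF and APRIL list summed to 531, 371, and 373 CPM, and follicular and marginal zone genes to 2415, 2141, and 2706 CPM. The 9 MHC class II genes summed to 32501 CPM, against 17476 CPM in the other labels (28028 CPM in the macrophages of S6) and 14748 CPM in spleen B cells. The following genes of the lists were chosen after their values were seen. Ebf1, a factor that establishes the B lineage, was at 554 CPM in the Myocytes of S6, 224 CPM in the other labels, and 459 CPM in spleen B cells, and Pax5 was at 99.3, 32.2, and 155 CPM. In the same order Ccr7 was at 672, 362, and 207 CPM, Rel at 1099, 549, and 496 CPM, and Nfkb2 at 159, 98.5, and 43.3 CPM. Cd38 (8.95, 1.89, and 76.4 CPM) and Mki67 (13.4, 36.0, and 67.5 CPM) were highest in spleen B cells. Stromal genes were at 793 CPM in the Myocytes of S6 against 90.4 CPM in spleen B cells, granulocyte genes at 13025 against 4014 CPM, and the 9 T cell genes at 395 against 349 CPM, and their part in the levels of the 9 genes was not tested.

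Smaller groups with the same label resembled it in part. In healthy muscle, the 33 cells of H6 had 814 CPM of Cd79a (465 to 1322) and 916 CPM of Cd79b (543 to 1448), and the 64 cells of H7 had 234 CPM (112 to 431) and 773 CPM (532 to 1085). Cr2 had 0 UMIs in both, with upper Poisson limits of 188 and 86.4 CPM. The 17 cells of the joint of S5 had 1919 CPM of Cd79b (1118 to 3072), from 17 UMIs. Cells with B cell genes under this label were thus present in healthy and in arthritic mice, and the numbers per mouse are too unequal for a comparison of disease groups.

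Other labels were compared between CIA and healthy mice where at least 3 mice per group had 10 cells. In these 10 comparisons none of the 9 genes was called by edgeR. In spleen monocytes, where 6.36% of genes tested were called, Ms4a1 was the only one of the 9 past the filter. It was at 206, 361, 194, and 367 CPM in H3, H4, H6, and H7 and at 59.4 (S1), 83.6, and 351 CPM (S6) in CIA, with overlap through S3 and S6, and its log2 fold change was -1.34 ± 0.58 (SE; edgeR, adjusted p = 0.243). In the same cells 2 of 3 tested plasma cell genes were called lower, Jchain at -2.28 ± 0.59 and Mzb1 at -2.02 ± 0.49. Of 2 tested genes of the follicular and marginal zone list Plac8 was called higher, at 1.56 ± 0.26, and the granulocyte genes S100a8 at 3.61 ± 0.76 and S100a9 at 2.92 ± 0.71 were called higher (log2, SE). The part of RNA from other cells in these values was not tested.

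In muscle macrophages, with 0.183% of genes called, Cd83 was at 77.0, 0, and 242 CPM in H4, H6, and H7 and at 453, 318, 224, and 541 CPM in S2, S3, S5, and S6. Only S5 fell below H7. The log2 fold change was 1.74 ± 0.69 (SE), with an unadjusted p of 0.0297 and an adjusted p of 0.672 in edgeR, and it was 1.14 without H6 and 3.75 without H7. Without any single CIA mouse, S6 among them, Cd83 did not pass the filter. In muscle T cells, with 0.0511% of genes called, 5 of the 9 genes passed the filter and had log2 fold changes of -0.53 (Cd79a) to 0.86 (Cd83), each with an edgeR adjusted p of at least 0.909. None of the 9 genes passed the filter in NK cells of spleen (0.0% of genes called), in fibroblasts of muscle (0.0%), joint (1.68%), and skin (0.0%), in macrophages of joint (10.3%) and lung (6.51%), or in Basal III cells of skin (0.0%). In muscle fibroblasts a fit of all genes with a UMI, whose median over all genes was 1.15, gave Cd79b a log2 fold change of 4.38 ± 1.1 (SE; edgeR, unadjusted p = 7.28e-05, adjusted p = 0.176). Of its UMIs there, 79 of 92 were from S6. The level was 0 CPM in H3, H4, and H6, 71.7 CPM in H7, and 0, 45.8, 206, and 804 CPM in S1, S5, S2, and S6.

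Genes of the pathway lists were called by edgeR in macrophages of joint and lung, where none of the 9 genes passed the filter. All 3 MHC class II genes that passed the filter were called lower in both. Cd74, the invariant chain, had a log2 fold change of -2.22 ± 0.39 in joint and -1.21 ± 0.24 in lung macrophages (SE), H2-Aa of -2.17 ± 0.43 and -1.39 ± 0.31, and H2-Ab1 of -2.05 ± 0.47 and -1.12 ± 0.27. From the follicular and marginal zone list, Plac8 was called higher (3.2 ± 0.59 and 2.75 ± 0.44) and Cd9, a tetraspanin, lower (-1.5 ± 0.38 and -1.25 ± 0.22), and from the early activation list Nfkbia was called lower in joint (-1.26 ± 0.35). The same 3 MHC class II genes, Plac8, and Cd9 were called in the sum of all lung cells, with Cd74 at -1.09 ± 0.23, H2-Aa at -1.13 ± 0.31, H2-Ab1 at -1.05 ± 0.24, Plac8 at 2.6 ± 0.43, and Cd9 at -1.27 ± 0.21. Granulocyte genes summed to 924 to 8302 CPM in healthy and 33602 to 59952 CPM in CIA joint macrophages, and to 356 to 545 and 580 to 14712 CPM in those of lung. The ranges overlapped in neither, but the share of all genes without overlap is not given, so this is a description only. The part of granulocyte genes in these values was not tested.

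Cd86 in lung macrophages was read from the per-mouse values, since 52 UMIs did not pass the filter. It was at 86.0, 96.3, 59.7, and 32.6 CPM in healthy mice and at 57.2 (S1), 127, and 290.4 CPM (S2) in CIA mice. Of the 6 CIA mice 5 were above all healthy mice, but S3 (105 CPM) and S8 (116 CPM) had 2 UMIs each. In these, 3 UMIs would have been 158 and 174 CPM. The share of all genes with such an order is not given, so the order is a description only. In the fit of all genes the log2 fold change was 0.76 ± 0.59 (SE; edgeR, adjusted p = 0.588). In the whole joint, lung, and skin, with 0.127%, 4.96%, and 0.0% of genes called, the 9 genes had few UMIs. None of the 9 genes passed the filter in these 3 organs. Skin had 0 UMIs of Cd79a, Ms4a1, Cd22, Fcer2a, and Cr2 in all mice, and joint had 0 of Cr2. Across the joint, Cd79a was at 0 to 22.3 CPM in healthy and 0 to 44.2 CPM in CIA mice, and Cd83 at 27.8 to 64.1 and 0 to 143 CPM.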

How the data were processed

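Cells from 48 samples of 10 mice were analysed from a single table of raw UMI counts that the authors deposited with cell labels. The labels name bcl2fastq, Picard, and STAR without versions. The labels list other genome builds than the GRCm38 of the study's methods, and gene positions here are from an annotation of GRCm38. The 9 genes and all lists were chosen with earlier results of these data known. UMIs of labelled cells were summed per mouse, organ, and label with at least 10 cells, and tested with edgeR 4.0.16 (TMM, quasi-likelihood, Benjamini-Hochberg over all genes past its filter on low counts, threshold 0.05) in R 4.3.3, where each group had at least 3 mice. DESeq2 1.42.0 was an alternative. The script was tested on simulated data. Shares of cells were compared with exact permutation tests in scipy 1.17.1. No doublet caller was run. The genes named from the lists were those past the threshold or, with none, the 2 with the lowest p. Depth per sample was 17748 to 1645734 UMIs. Values of some single genes of the lists are not reported here.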

Additional observations from a re-analysis of the deposited data

Results flagged for a closer look

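In 5 of 58 groups of mice tested, 1 sample lay far from the others by Dixon's criterion, which chance gives in about 1 of 20 groups. Cd79b in all labelled spleen cells was at 215 CPM in the healthy mouse H3, where the median of the other healthy mice was 479 CPM. In CIA muscle, S8 had 851 CPM of Ms4a1 (median of the others 154 CPM), 280.2 CPM of Cr2 (7.35 CPM), and 57.3% B cells (1.31%), and S6 had 201 CPM of Cd86 (47.8 CPM). The muscle cells of S8 include barcodes of its spleen library.

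The genes were also present in cells without a label, which entered no comparison. In unlabelled muscle cells of CIA mice, Cd79b was at 710 CPM, Ms4a1 at 294 CPM, and Cd83 at 441 CPM, against 149, 55.8, and 37.2 CPM in those of healthy mice. The genes named are those whose Poisson interval in CIA mice lay above that in healthy mice. The CIA values pool 221 cells, and mice were not weighted equally. The muscle library of S6, where Cd79b and Cd83 were high under other labels too, held 2096 cells, of which 1989 had a label. The part of S6 in these pooled values was not tested, and neither were the differences.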

How the results depend on the processing

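None of the 9 genes passed the threshold in 674 tests over 112 combinations of comparison and setting. The number of all genes called moved more. In spleen B cells it was 0, and 4 with DESeq2, 15 without the filter, and 0 to 4 leaving out single mice. In all spleen cells it was 4, and 47 with DESeq2, 172 without the filter, 8 with experiment as a term, 0 in the experiment of the mild mice, 16 with the replicate block, and 0 to 14 leaving out single mice. In all muscle cells it was 2, and 9 with DESeq2, 63 without the filter, 1 under RLE scaling, 0 under scaling by plain library size, 0 with experiment as a term, 0 in the experiment of the mild mice, 9 with the replicate block, 0 without cells labelled Myocytes, 1 without shared barcodes, 1 without S6 and S8, and 0 to 3 leaving out single mice. In spleen monocytes it was 29, and 45 with DESeq2, 44 with plain library size, 81 without the filter, 3 in the experiment of the mild mice, 17 without shared barcodes, and 7 to 23 leaving out single mice. In muscle macrophages it was 1, and 10 without the filter, 0 with at least 20 cells, 0 in the experiment of the mild mice, and 0 to 1 leaving out single mice. The cause of these changes was not tested.

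None of the fold changes that changed sign had passed the threshold. In spleen B cells Cd79a was 0.63 in B cells with no haemoglobin UMI (-0.39 to 0.0 leaving out single mice). Ms4a1 was 0.0 with plain library size, 0.05 without the filter, and 0.28 with no haemoglobin UMI (-0.26 to 0.16). Cd22 was -0.45 in the experiment of the mild mice (-0.22 to 0.26), Fcer2a was 0.10 with the replicate block (-0.82 to 0.20), and Cr2 was -0.05 with experiment as a term, -0.11 in the experiment of the mild mice, and -0.35 with the replicate block (-0.29 to 0.43). In all spleen cells Cr2 was 0.24 without H4 (-0.64 to 0.24). In muscle without S6 and S8, Cd79a was -0.37 and Cd79b -0.56. Ms4a1 in spleen monocytes was 0.66 with the replicate block. The B cell share differed by -18.8 to -10.8 points in spleen and 0.349 to 11.8 points in muscle leaving out single mice. In muscle B cells without S8 the pooled level was 326 CPM for Cd79b, 651 CPM for Ms4a1, 326 CPM for Fcer2a, 109 CPM for Tnfrsf13c, and 488 CPM for Cd83, and without S6 Cd83 was at 164 CPM in muscle neutrophils and 260.5 CPM in muscle macrophages. Without thinning, the shares of cells labelled Myocytes of S6 with a UMI were 27.2% (Cd79a), 56.1% (Cd79b), 20.5% (Ms4a1), 10.3% (Cd22), 7.64% (Fcer2a), 4.96% (Cr2), 21.1% (Tnfrsf13c), 45.2% (Cd83), and 15.2% (Cd86). The groups shared only the numbers 3 and 6, which belong to different animals, so the block pairs no samples by design, and deviations of same-numbered mice correlated at -0.12 to 0.35 across genes. The alternatives without shared barcodes, without haemoglobin genes, and without S6, S8, or both in pooled or tested muscle values were chosen after seeing the data. Depth limits Cd86 most, with 37 UMIs in all spleen B cells.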
